A study of Mus musculus with 9 samples.

Results

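To determine which genes differ when Sip1 is removed from the developing lens, RNA libraries of Sip1 conditional knockout (cKO) lenses were compared with libraries of wild type lenses of the same mixed strain background. The comparison holds 190 genes, which is every gene listed for these libraries, of the 7738 genes listed in any table of the study, and 6 of its 9 libraries. The genes were joined between libraries by symbol and are described by direction, size of change and function. Both groups carried Sip1 flox/flox alleles in mice of a mixed strain, and lenses were taken at 15.5 days post conception. The 3 cKO libraries carried the MLR10Cre transgene as well, and the 3 mixed wild type libraries had no Cre. MLR10Cre expresses Cre recombinase in the lens from a modified alpha A-crystallin promoter. Each library pooled 30 lenses, and the labels name the 3 of each genotype as independent biological replicates. Another group, 3 inbred wild type libraries of a C57Bl/6 substrain at the same age, is given beside the others where it lists the gene. Cre was present in the cKO alone, so an effect of the transgene cannot be told apart from an effect of Sip1 loss.

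Sip1 (Smad-interacting protein 1) is encoded by Zeb2. It is a transcription factor of the zinc finger class that represses many of its targets and binds paired sites with the letters CACCT. Its known roles are in neural crest, in neural development and in transitions between epithelial and mesenchymal cell states. The lens forms from surface ectoderm. Its anterior epithelial cells divide, and its posterior cells elongate into fibre cells, which fill with crystallins and later lose their nuclei. Zeb2 itself is not among the 190 genes, so its level in the cKO was not analysed here, and the labels were not checked by it.

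The 190 genes are a list that the authors chose for a difference between these same libraries. In the authors' normalized expression values, the smallest ratio of group means in the list was 2.505-fold, so the list ends near a threshold of 2.5-fold. The members just inside it were Ehd4 among genes higher in cKO, at 2.505-fold, and Cyba among genes lower in cKO, at 2.51-fold. Genes outside the list are not analysed here. Levels below are RPKM, that is reads per length of exon and per mapped read of the library, so that genes can be compared. The mixed wild type libraries are called controls, and values are given in the order of replicates 1, 2 and 3. A fold is the ratio of the mean RPKM of the groups, and a log2 fold change is cKO minus mixed wild type on the log2(RPKM + 0.5) scale, with its standard error (SE). That scale understates changes of genes with low levels. Since the list was made from this contrast, the values describe the members and do not test them.

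Of the 190 genes, 189 passed limma's test at an adjusted p of 0.05 (99.5% of those tested), 103 of them higher in cKO (54.2%) and 86 lower (45.3%). In all 190 genes (100%) the 3 cKO libraries lay on 1 side of the 3 mixed wild type libraries, without overlap. The exception to the calls was Rpl19, a ribosomal protein gene, with 324, 362 and 329 RPKM in the controls and 312, 282 and 303 in cKO (log2 fold change -0.18, SE 0.09, limma adjusted p = 0.0666). Of the 190 genes, 169 were called and changed by at least 2-fold on the log2 scale (88.9%). These shares depend on the authors' choice of genes for a difference between these libraries, by a rule that is not stated. They serve as the background for the counts of each gene group. Depth was 38.7 to 44.1 M reads in mixed wild type, 25.9 to 27.4 M in cKO and 14.1 to 16.7 M in inbred wild type, and counting intervals cover counting error only. The groups also differ in depth, and the labels give no library batch.

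Genes higher in cKO were mostly low in the control lens, and genes lower in cKO were mostly well expressed there. The 103 genes higher in cKO had a median of 1.31 RPKM in mixed wild type and 8.32 RPKM in cKO, and 42 of them were below 1 RPKM in mixed wild type. The 87 genes lower in cKO had a median of 20.4 RPKM in mixed wild type and 8.64 RPKM in cKO, and none of them was below 2 RPKM in mixed wild type. Median folds were 5.22 for the first set (1.95 to 232) and 2.47 for the second (1.13 to 140). Large changes lay in 1 direction: of 17 genes at 30-fold or more, 16 were higher in cKO, and all 14 genes between 10-fold and 30-fold were higher. The single large fall was that of the histone gene Hist1h2af. In all 190 genes the group with the higher level averaged at least 2.14 RPKM, so the list also seems to start near 2 RPKM. A gene with a low wild type level can enter such a list only by a rise, which bounds the direction of the low genes. That none of the lower genes was below 2 RPKM in mixed wild type therefore follows from the listing. The contrast of control levels between the sets is in part built in. The inbred tables hold 128 of the members, of which 43 were higher in cKO and 85 lower, while 60 of the remaining 62 were higher. The lowest inbred mean among the 128 was 2.01 RPKM (Tecrl), so these tables also seem to leave out genes of low wild type level. Such genes can be members only by a rise, so the count of 60 of 62 is bounded in the same way.

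**Figure D1:**
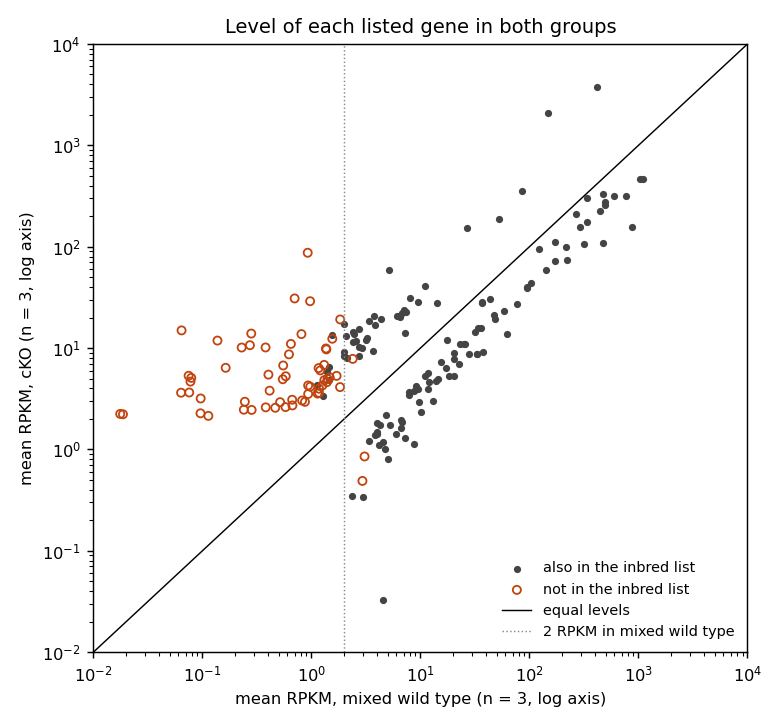
Mean RPKM of each of the 190 genes in mixed wild type (x axis) and cKO (y axis), 3 libraries each, both axes logarithmic. Filled points are the 128 genes also in the inbred list and open points the other 62. The line marks equal levels and the dotted line 2 RPKM in mixed wild type, near the level where the list seems to start. The open points lie to the left and, except for 2, above the line.

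The most abundant members changed places. In mixed wild type the highest level was that of Ndufa1, a subunit of respiratory complex I, with a mean of 1097 RPKM, followed by mt-Nd6 (1029.8), mt-Atp6 (878) and the nuclear noncoding RNA Malat1 (766). In cKO the highest was the crystallin gene Crygs with 3725 RPKM, followed by Uchl1, a ubiquitin hydrolase gene, with 2086 RPKM. The 190 genes summed to 12570.1 RPKM in cKO, of which Crygs took 29.6% and Uchl1 16.6%. In mixed wild type the 190 genes summed to 11697 RPKM, with 3.56% and 1.26% for the same genes. The order of levels in the groups had a Spearman correlation of 0.54 across the 190 genes, which share their libraries and are not independent replicates.

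**Figure D2:**
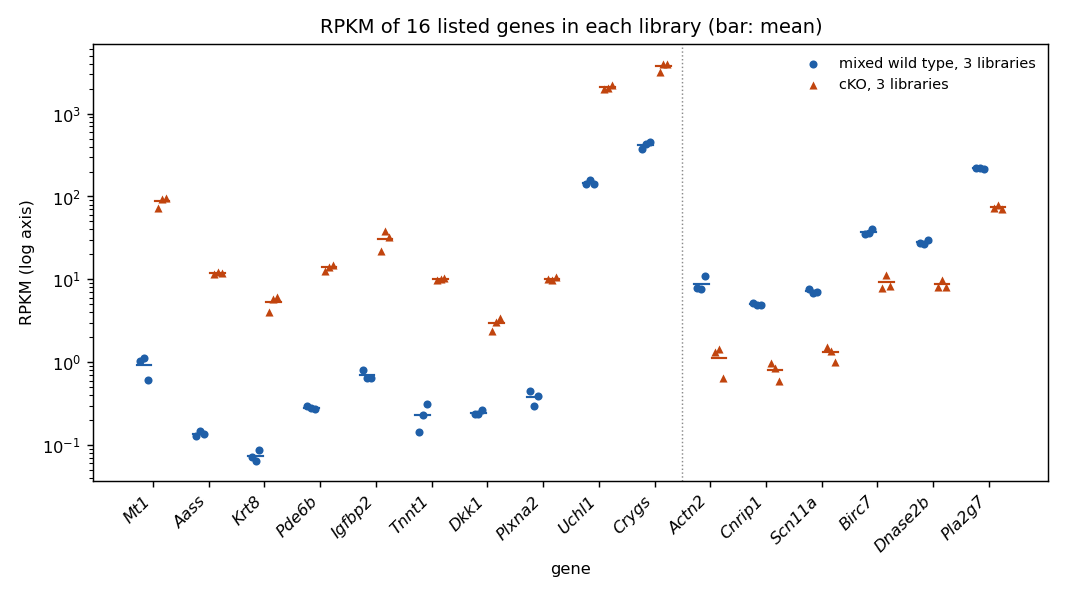
RPKM of 16 members in each library on a logarithmic axis, circles for the 3 mixed wild type and triangles for the 3 cKO libraries, with a bar at each mean. The 10 genes left of the dotted line were higher in cKO and the 6 to its right lower, and in none do the groups overlap.

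Of the structural lens genes, 5 were members, and they split by direction. Crygs, which encodes gamma S-crystallin, stood at 369.9, 429.7 and 449 RPKM in the controls and 3200.4, 3983 and 3991 in cKO (log2 fold change 3.16, SE 0.12), a rise of 8.95-fold. The mixed wild type libraries were near the inbred level of 389 ± 70.9 RPKM (SD, n = 3), and the lowest cKO library was far above both. No other crystallin of the 16 on the list is among the 190. Lgsn, which encodes lengsin, a lens protein of the glutamine synthetase family, was at 0.069, 0.037 and 0.085 RPKM in the controls and 3.82, 2.78 and 4.28 in cKO, so that it was near absent in every control library and present in every cKO library. The 3 others fell. Birc7, an inhibitor of apoptosis gene, went from 35.2, 36.1 and 40.7 RPKM in the controls to 7.86, 11.2 and 8.39 in cKO (4.08-fold lower). Dnase2b, the nuclease that degrades DNA of maturing fibre cells, was at 27.7, 26.6 and 29.95 RPKM in the controls and 8.13, 9.81 and 8.06 in cKO (3.24-fold lower). Lctl, a klotho family member, went from 30.2, 29.8 and 35.8 RPKM in the controls to 11.7, 17.5 and 13.6 in cKO (2.24-fold lower). In all 3 of them cKO replicate 2 was the highest of the cKO libraries. The inbred wild type levels of Lctl (16.3 ± 2.22 RPKM) and Dnase2b (16.9 ± 3.14 RPKM) lay between those of mixed wild type and cKO, and for Lctl close to cKO. None of the 23 lens epithelium genes is a member. In pooled lenses, fewer cells of a type and less RNA per cell cannot be told apart.

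Keratin and junction genes were mostly higher in cKO. Of 12 genes for epithelial keratins, junctions and adhesion, 9 rose (75%, against 54.2% of all 190 genes) and 3 fell. Their median log2 fold change was 1.47, against 1.37 over all 190 genes. All 9 that rose except Magi2 were among those remaining 62. Krt8 and Krt18 encode the partner keratins of simple epithelia and are neighbours on chromosome 15. Krt8 was at 0.072, 0.064 and 0.088 RPKM in the controls and 4.06, 5.803 and 6.12 in cKO (71.4-fold). From the recovered reads these were 5, 5 and 7 reads in the controls and 201, 271 and 287 in cKO. Krt18 went from 0.591, 0.811 and 0.34 RPKM in the controls to 4.51, 5.13 and 6.16 in cKO (9.07-fold). In both genes cKO replicate 1 was the lowest and cKO replicate 3 the highest of the knockout libraries. Krt8 shares 32.3% of its 31-base words with transcripts of other genes and Krt18 11.4%, which makes their values uncertain where reads could be assigned to a copy.

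Genes of junctions and of the basement membrane rose by smaller folds. Dsp (desmoplakin), which ties keratin filaments to desmosomes, was at 0.467, 0.347 and 0.328 RPKM in the controls and 2.45, 2.77 and 2.58 in cKO (6.83-fold). Dsc2, a desmosomal cadherin, went from 1.58, 1.28 and 1.299 RPKM in the controls to 3.91, 5.18 and 4.73 in cKO (3.33-fold). Fras1, a protein of the epithelial basement membrane, was at 0.56, 0.436 and 0.551 RPKM in the controls and 2.83, 3.03 and 2.92 in cKO (5.67-fold). The junction proteins encoded by Plekha7 (4.64-fold) and Mpp7 (3.52-fold), the scaffold gene Magi2 (2.55-fold) and the integrin subunit gene Itgb8 (3.38-fold) were higher as well. Quantile normalization gives every library the same set of values over the 190 selected genes. A call lost or a direction turned under it, here and below, therefore does not decide whether a gene changed. That scaling ended the calls of Dsc2 (log2 fold change 0.26, limma adjusted p = 0.0927) and Itgb8 (0.077, limma adjusted p = 0.402). Against these rises, the hair keratin gene Krt40 went from 3.15, 3.34 and 3.61 RPKM in the controls to 1.16, 1.17 and 1.31 in cKO (2.77-fold lower), and the adhesion genes Ceacam10 and Ceacam2 were 2.13-fold and 2.28-fold lower. Ceacam10 had the same level in inbred wild type (7.27 ± 1.58 RPKM) as in cKO (7.21 ± 1.69 RPKM). Ceacam10 and Ceacam2 share 7.86% and 56.5% of their words with other transcripts. Of the 67 surface ectoderm and keratinocyte genes on the list, the 4 members Krt8, Krt18, Dsp and Dsc2 summed to 2.06 to 2.71 RPKM in the mixed wild type libraries and 14.9 to 19.6 RPKM in cKO.

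Since Krt8 and Krt18 rose together, as did the neighbours Dkk1 and Prkg1 on chromosome 19, the 250 bases before the RefSeq start of each (GRCm38.p6) are shown, with that of Crygs, the crystallin of the list. Capitals mark CACCT, the letters bound by ZEB factors, on either strand (read as AGGTG on the other), and in Crygs TGCTGA, a core recognised by MAF factors, on either strand (TCAGCA).
Krt8, chr15:102004343-102004592, minus strand: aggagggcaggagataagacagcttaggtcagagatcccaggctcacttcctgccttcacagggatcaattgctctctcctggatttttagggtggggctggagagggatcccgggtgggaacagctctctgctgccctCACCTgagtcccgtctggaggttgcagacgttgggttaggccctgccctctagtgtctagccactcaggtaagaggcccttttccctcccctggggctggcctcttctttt
Krt18, chr15:102027966-102028215, plus strand: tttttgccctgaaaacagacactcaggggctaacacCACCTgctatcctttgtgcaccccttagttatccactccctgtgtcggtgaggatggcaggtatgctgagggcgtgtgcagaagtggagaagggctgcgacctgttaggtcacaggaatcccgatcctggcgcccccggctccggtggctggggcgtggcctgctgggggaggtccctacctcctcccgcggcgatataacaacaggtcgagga
Dkk1, chr19:30549497-30549746, minus strand: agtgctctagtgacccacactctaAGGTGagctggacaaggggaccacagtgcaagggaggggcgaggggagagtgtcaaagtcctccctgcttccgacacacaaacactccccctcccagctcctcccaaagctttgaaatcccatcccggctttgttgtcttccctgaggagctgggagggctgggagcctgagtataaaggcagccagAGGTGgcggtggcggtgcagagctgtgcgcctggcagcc
Prkg1, chr19:31765034-31765283, minus strand: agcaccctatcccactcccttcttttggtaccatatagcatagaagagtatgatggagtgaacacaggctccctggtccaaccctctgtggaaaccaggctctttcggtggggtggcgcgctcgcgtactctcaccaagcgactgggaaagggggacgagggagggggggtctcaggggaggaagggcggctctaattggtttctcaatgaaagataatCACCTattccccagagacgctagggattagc
Crygs, chr16:22811411-22811660, minus strand: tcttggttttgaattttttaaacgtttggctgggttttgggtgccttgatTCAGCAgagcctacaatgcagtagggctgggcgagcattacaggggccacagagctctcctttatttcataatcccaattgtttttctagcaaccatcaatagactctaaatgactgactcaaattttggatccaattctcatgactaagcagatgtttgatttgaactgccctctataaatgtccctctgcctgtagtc
Each of the first 4 windows holds CACCT, once in Krt8, Krt18 and Prkg1 and at 2 places in Dkk1. Such matches are common. Among the 147 members with a promoter of 300 bases in the RefSeq table (250 before to 50 after the start), CACCT on either strand occurred in 46 of 79 genes higher in cKO (58.2%) and in 34 of 68 lower (50%), beside 51.7% of all 27025 promoters. The longer CACCTG, which contains CACCT, occurred in 20.3% and 19.1%, beside 20.03% of all. TGCTGA occurred in 22.8% and 19.1%, beside 19.1%. The letters TGCGCNC or TGCACNC, the core of the metal response element, occurred in 40.5% and 36.8%, beside 25.6% of all promoters. Base composition moved with that last share: the median GC content was 60.7% and 57.8% in the 2 member sets and 52.7% over all promoters, and its part in the share was not tested. A match is a description of letters and not of a bound site.

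**Figure D3:**
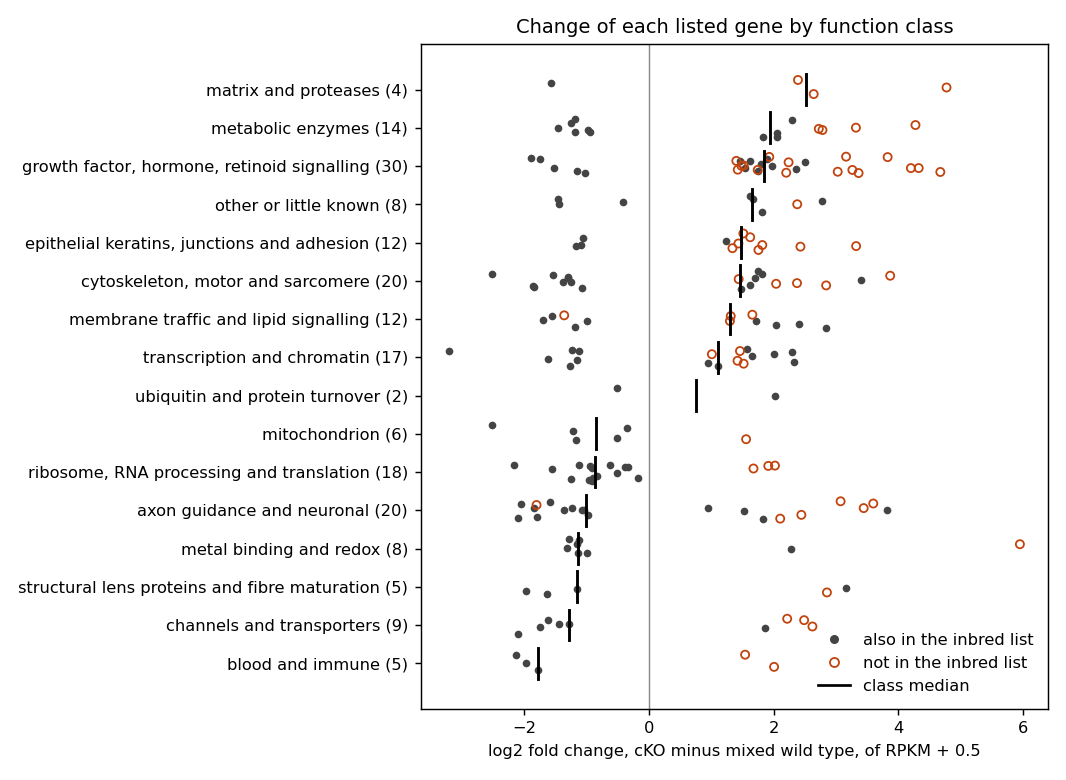
Log2 fold change of each of the 190 genes (x axis, cKO minus mixed wild type, RPKM + 0.5) in 16 function classes, each with its number of genes. Filled points are in the inbred list, open points are not, and a bar marks each class median; signalling genes lie mostly to the right of 0 and ribosome and RNA genes to its left.

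Signalling genes formed the largest class and were mostly higher in cKO. Of 30, 25 rose and 5 fell, which is 83.3% higher against 54.2% of all genes, and 16 of the 30 are outside the inbred list. The binding proteins of insulin-like growth factors were among the largest. Igfbp2 was at 0.812, 0.64 and 0.651 RPKM in the controls and 22.1, 37.9 and 32.5 in cKO (44.02-fold; log2 fold change 4.68, SE 0.17). Its relative Igfbpl1 went from 0.915, 1.14 and 0.859 RPKM in the controls to 28.01, 28.5 and 30.4 in cKO (29.8-fold; log2 fold change 4.33, SE 0.10). Both moved from about 1 RPKM or less to similar levels, and the 3 cKO libraries were close together for Igfbpl1 but spread for Igfbp2, with replicate 1 lowest. Pappa, a protease gene that acts on such binding proteins, went the other way, at 6.56, 5.17 and 6.35 RPKM in the controls and 1.29, 1.71 and 1.302 in cKO (4.204-fold lower).

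Among regulators of other pathways most named genes were higher and Fgfbp3 was lower. Dkk1, a secreted Wnt inhibitor and the only member of the 32 Wnt genes on the list, was at 0.234, 0.239 and 0.262 RPKM in the controls and 2.39, 3.07 and 3.39 in cKO (12.1-fold), which came from 75 reads in all control libraries and 566 in cKO. Dlk1, a membrane protein related to Notch ligands, went from 0.224, 0.221 and 0.373 RPKM in the controls to 10.4, 8.05 and 13.6 in cKO (39.1-fold), and its cKO libraries were spread. Hes6, a transcriptional regulator of the Hes family, was at 7.59, 7.601 and 6.85 RPKM in the controls and 23.4, 20.99 and 24.4 in cKO (3.12-fold). Dlk1 and Hes6 are the 2 members of 21 Notch pathway genes. Of 34 TGF-beta and BMP genes the 3 members were higher: Cyr61, a matricellular protein, went from 0.65, 0.526 and 0.559 RPKM in the controls to 2.27, 3.202 and 2.37 in cKO (4.52-fold), the co-receptor gene Rgmb rose 7.08-fold and the receptor gene Neo1 2.99-fold. The call of Cyr61 was lost under quantile normalization over the 190 genes (log2 fold change 0.086, limma adjusted p = 0.627). Of 19 FGF and MAPK feedback genes, Dusp6, a phosphatase that inactivates ERK, was at 7.297, 6.21 and 6.17 RPKM in the controls and 18.6, 21.3 and 20.2 in cKO (3.06-fold). Fgfbp3, which encodes an FGF carrier, went from 9.22, 9.53 and 8.695 RPKM in the controls to 4.55, 4.01 and 4.15 in cKO (2.16-fold lower). Fgfbp3 lay at 6.08 ± 0.356 RPKM in inbred wild type, nearer to cKO than to mixed wild type.

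Retinoid genes changed in synthesis, breakdown and transport. Aldh1a3, which makes retinoic acid, was at 0.202, 0.121 and 0.167 RPKM in the controls and 5.08, 7.12 and 6.95 in cKO (39.1-fold). Cyp26a1, which breaks it down, went from 1.78, 1.74 and 1.59 RPKM in the controls to 5.33, 4.95 and 5.67 in cKO (3.12-fold). Rbp3, a retinoid carrier best known from photoreceptors, was at 8.06, 4.96 and 7.06 RPKM in the controls and 2.33, 1.82 and 1.75 in cKO (3.399-fold lower). These 3 were the members of 21 retinoic acid genes, with the gene for synthesis near absent in control lenses and the carrier well above the knockout in every control library. Pde6b, a phosphodiesterase subunit of rods, moved against Rbp3, from 0.293, 0.277 and 0.271 RPKM to 12.7, 14.04 and 14.96 RPKM (49.6-fold). Pde6b and Rbp3 are the 2 members of the 22 retina genes, and their sum was 5.23 to 8.35 RPKM in mixed wild type and 15.03 to 16.7 RPKM in cKO.

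Hormone, receptor and second messenger genes made up most of the other rises. The chemokine gene Cxcl14 went from 0.085, 0.102 and 0.05 RPKM in the controls to 4.42, 5.22 and 5.59 in cKO (64.3-fold) and the somatostatin receptor gene Sstr1 was at 0.088, 0.045 and 0.1 RPKM in the controls and 4.71, 4.65 and 4.65 in cKO (60.1-fold), both near 0 in every control library. Rgs4, which limits G protein signalling, was at 0.526, 0.666 and 0.674 RPKM in the controls and 7.64, 9.31 and 9.04 in cKO (13.9-fold). Gcg, the glucagon gene, was already present in the wild type, at 28.02, 24.8 and 26.6 RPKM in the controls and 149, 151 and 159 in cKO (5.78-fold), with 25.8 ± 2.603 RPKM in inbred wild type. Prkg1, a cyclic GMP-dependent kinase gene, went from 4.06, 2.42 and 2.96 RPKM in the controls to 12.1, 11.8 and 11.97 in cKO (3.81-fold), and control replicate 1 was the highest of its group. The endothelial receptor gene Tek was at 2.799, 2.82 and 2.51 RPKM in the controls and 7.84, 8.61 and 8.49 in cKO (3.06-fold). Rises of 3.38-fold to 9.19-fold were found for Ptprt, Wnk2, Ppp2r2b, Edaradd, Rapgef5, Adcy9, Fam132a, Cbl, Apln and Rassf4. Of these, Cbl, Apln and Rassf4 lost their calls under quantile normalization, with limma adjusted p of 0.119, 0.0736 and 0.0853. Lower in cKO were Rcan2, a regulator of calcineurin, at 10.7, 8.796 and 10.9 RPKM in the controls and 2.83, 2.38 and 1.88 in cKO (4.299-fold), and the neurotrophin receptor gene Ngfr, at 7.901, 9.15 and 11.5 RPKM in the controls and 4.12, 3.51 and 4.32 in cKO (2.39-fold).

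Genes for axon guidance and neuronal functions split, with 9 of 20 higher (45%, against 54.2% of all 190 genes) and 11 lower. Receptors and ligands of guidance were on the higher side. Plxna2, a semaphorin receptor gene, went from 0.445, 0.298 and 0.395 RPKM in the controls to 9.98, 9.87 and 10.6 in cKO (26.7-fold), and its relative Plxna1 was at 8.34, 6.296 and 6.81 RPKM in the controls and 14.5, 13.7 and 14.2 in cKO (1.98-fold). Rgmb was at 1.45, 1.26 and 1.402 RPKM in the controls and 8.76, 10.3 and 10.02 in cKO (7.08-fold) and Neo1, the receptor of RGM proteins and netrins, at 10.3, 8.67 and 9.59 RPKM in the controls and 30.9, 26.5 and 28.1 in cKO (2.99-fold). Centring each library on its median ended the call of Plxna1 (log2 fold change 0.06, limma adjusted p = 0.572). Its inbred wild type level of 12.99 ± 2.35 RPKM was close to cKO (14.1 ± 0.449 RPKM), while that of Neo1, 12.5 ± 1.47 RPKM, was nearer to mixed wild type. Dpysl2, which acts downstream of semaphorins on microtubules, went from 32.3, 34.9 and 31.7 RPKM in the controls to 9.31, 8.59 and 8.43 in cKO (3.75-fold lower). These are the 5 members of 32 guidance genes.

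Synaptic and neuronal markers did not move as 1 set. Uchl1 was at 142, 158 and 142 RPKM in the controls and 1971, 2049 and 2239 in cKO (14.1-fold; log2 fold change 3.82, SE 0.09), and was the second highest member in cKO. Enc1, which encodes an actin-binding protein of the nervous system, went from 0.954, 0.679 and 0.794 RPKM in the controls to 12.5, 13.99 and 14.7 in cKO (16.97-fold), the nicotinic receptor subunit gene Chrna4 was at 1.97, 1.69 and 1.84 RPKM in the controls and 19.1, 19.1 and 19.2 in cKO (10.4-fold) and the synaptic adhesion gene Nlgn1 was at 0.119, 0.101 and 0.12 RPKM in the controls and 1.96, 2.31 and 2.15 in cKO (18.9-fold). In the other direction, Stmn4, a stathmin gene, was at 2.97, 2.95 and 2.92 RPKM in the controls and 0.457, 0.424 and 0.141 in cKO (8.65-fold), and Elavl4, a neuronal RNA-binding protein gene, at 3.18, 2.93 and 2.69 RPKM in the controls and 0.406, 0.674 and 0.386 in cKO (6.01-fold). Cnrip1, a cannabinoid receptor binding protein gene, went from 5.22, 4.97 and 4.95 RPKM in the controls to 0.966, 0.84 and 0.596 in cKO (6.301-fold). Cend1, a neuronal differentiation gene, fell 4.69-fold, Faim2 3.84-fold, the synaptotagmin gene Syt5 3.001-fold and the myelin gene Pmp22 2.38-fold. Of 26 neuron markers, the 4 members Uchl1, Elavl4, Stmn4 and Cend1 summed to 152 to 169 RPKM in mixed wild type and 1973 to 2240.3 RPKM in cKO, nearly all of it Uchl1, while the other 3 fell.

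Genes of the cytoskeleton and of muscle proteins also split, with 11 of 20 higher and 9 lower. That is 55% higher, near the 54.2% of all 190 genes. Tnnt1, the troponin T of slow muscle, was at 0.142, 0.233 and 0.312 RPKM in the controls and 9.77, 10.2 and 10.4 in cKO (44.2-fold). Myh7b, a myosin heavy chain gene, went from 5.08, 5.904 and 4.35 RPKM in the controls to 61.3, 53.3 and 61.4 in cKO (11.5-fold), with 6.32 ± 1.35 RPKM in inbred wild type. Sntg2, a syntrophin gene, was at 0.087, 0.085 and 0.055 RPKM in the controls and 3.2, 3.68 and 4.04 in cKO (48.1-fold), and Trim55, a ubiquitin ligase of the sarcomere, at 0.506, 0.61 and 0.521 RPKM in the controls and 5.23, 4.67 and 4.87 in cKO (9.02-fold). These 4 were higher in every knockout library, while the sarcomere gene Actn2 was lower in all of them. Actn2, which crosslinks actin, went from 7.82, 7.61 and 10.9 RPKM in the controls to 1.33, 1.43 and 0.646 in cKO (7.71-fold). Pgm5, a cytoskeletal relative of phosphoglucomutase, was at 34.1, 30.9 and 33.6 RPKM in the controls and 9.38, 8.69 and 7.86 in cKO (3.81-fold), and Myo7b, an unconventional myosin gene, at 19.8, 18.3 and 22.5 RPKM in the controls and 4.92, 5.97 and 4.86 in cKO (3.85-fold). The tubulin genes fell together, Tubb2a by 2.396-fold, its neighbour Tubb2b by 2.47-fold and Tubb4 by 2.71-fold. Tubb2a shares 56.4% and Tubb2b 45.9% of its words with other transcripts, so reads may have been split between copies. The kinesin gene Kifc3 fell 3.804-fold, the tropomyosin gene Tpm2 2.56-fold and Tppp3, a microtubule-binding protein gene, 2.15-fold. The muscle markers, 4 members of 24, therefore moved in both directions (Tnnt1 and Myh7b higher, Actn2 and Pgm5 lower) and summed to 44.6 to 49.2 RPKM in mixed wild type and 73.5 to 81.8 RPKM in cKO.

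Transcription and chromatin genes changed by moderate folds, 11 of 17 higher (64.7%, against 54.2% of all 190 genes) and 6 lower. Myb, a transcription factor gene of dividing progenitor cells, went from 2.73, 2.87 and 2.601 RPKM in the controls to 14.98, 15.1 and 15.8 in cKO (5.598-fold). Lbh, a transcriptional cofactor gene, was at 3.79, 3.95 and 3.601 RPKM in the controls and 20.04, 20.6 and 21.9 in cKO (5.52-fold), and Cited4, a CBP/p300 cofactor gene, at 3.97, 3.72 and 3.84 RPKM in the controls and 16.5, 15.3 and 19.1 in cKO (4.41-fold). For Myb and Lbh the 3 cKO libraries differed little among themselves, and the inbred levels (4.37 ± 0.518 and 5.24 ± 1.91 RPKM) were nearer to mixed wild type than to cKO. For Myb every inbred library (4.93, 3.91 and 4.27 RPKM) lay above the controls. Sox3, a SoxB1 factor gene of neural and placodal ectoderm, went from 0.703, 0.72 and 0.584 RPKM in the controls to 2.55, 2.96 and 2.63 in cKO (4.06-fold). Quantile normalization over the 190 selected genes took its log2 fold change to -0.0043 (limma adjusted p = 0.96), which does not decide whether it changed. The calls of Cbx6, Jhdm1d, Polr2b and Zfp111 in this class were also lost under quantile normalization or median centring. Btg2, an antiproliferative gene, rose 3.29-fold. The falls were led by Hist1h2af, at 5.18, 3.14 and 5.23 RPKM in the controls and 0, 0.097 and 0 in cKO. That is 226 reads in mixed wild type against 1 read in cKO, a ratio of 142 after scaling to depth, with a 95% exact interval of 25.3 to 5645 for counting error alone. Hist1h2af shares 85.9% of its words with transcripts of other genes, and its value is uncertain. Aebp1 was at 7.28, 6.499 and 6.58 RPKM in the controls and 1.79, 2.095 and 1.74 in cKO (3.62-fold lower). Hmgn3, a nucleosome-binding protein gene, went from 155, 184 and 174 RPKM in the controls to 68.6, 77.6 and 69.3 in cKO (2.38-fold lower), with inbred wild type between at 103 ± 10.3 RPKM. The zinc finger genes Prdm16 (2.34-fold) and Zbtb7b (2.27-fold) were lower too.

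Few matrix genes were listed. They held the largest ratio of mean RPKM among the rises, that of Ucma, from few control reads, while on the log2(RPKM + 0.5) scale Mt1 rose most. Ucma, a secreted protein gene known from cartilage, was at 0.088, 0.105 and 0 RPKM in the controls and 13.9, 14.4 and 16.4 in cKO. It had 7 reads in the 3 control libraries and 1045 in cKO, a ratio of 237 after scaling to depth, with a 95% exact counting interval of 115 to 591. Adamts15, a metalloprotease gene, went from 0.022, 0.00782 and 0.023 RPKM in the controls to 1.75, 2.33 and 2.64 in cKO (127.2-fold). Podn, a small proteoglycan gene, was at 1.53, 1.46 and 1.67 RPKM in the controls and 10.9, 12.8 and 13.4 in cKO (7.96-fold). The first 2 were near 0 in all control libraries, and Podn was low but present. Tmprss11e, a membrane serine protease gene of epithelia, went from 10.6, 8.85 and 9.74 RPKM in the controls to 3.04, 3.15 and 2.59 in cKO (3.33-fold lower). Prr15, a gene of little known function, had 3 reads in mixed wild type, all in replicate 1, and 244 in cKO, a ratio of 129 with a counting interval of 43.7 to 631.

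Metabolic enzymes were higher in 8 of 14 genes (57.1%), near the 54.2% of all 190 genes. Aass, the first enzyme of lysine breakdown, was at 0.129, 0.146 and 0.137 RPKM in the controls and 11.6, 12.2 and 11.8 in cKO (86.3-fold; log2 fold change 4.28, SE 0.09). Acss2, which makes acetyl-CoA from acetate, went from 0.6, 0.513 and 0.538 RPKM in the controls to 6.44, 6.67 and 7.08 in cKO (12.2-fold). Entpd3, an enzyme that degrades extracellular nucleotides, was at 0.352, 0.433 and 0.424 RPKM in the controls and 5.43, 5.25 and 5.71 in cKO (13.6-fold), and the carboxylesterase gene Ces1e at 0.649, 0.715 and 0.58 RPKM in the controls and 9.91, 11.7 and 11.3 in cKO (16.9-fold). Ckb, brain creatine kinase, was abundant in all groups, at 86.1, 82.1 and 87.9 RPKM in the controls and 346, 352 and 374 in cKO (4.19-fold). Ces1e and Ckb share 8.66% and 15.6% of their words with other transcripts. The falls were smaller and included lipid enzymes. Cpt1a, which controls entry of fatty acids into mitochondria, went from 13.8, 12.02 and 16.1 RPKM in the controls to 4.73, 5.05 and 4.45 in cKO (2.94-fold). Elovl4, which elongates very long fatty acids, was at 4.08, 3.97 and 3.97 RPKM in the controls and 1.52, 1.49 and 1.198 in cKO (2.86-fold), and Cyp7b1, a sterol hydroxylase gene, at 4.06, 4.002 and 3.82 RPKM in the controls and 1.43, 1.61 and 1.37 in cKO (2.697-fold). Pla2g7, which hydrolyses platelet-activating factor and was counted with membrane traffic and lipid signalling, went from 221, 224 and 214 RPKM in the controls to 73.5, 77.9 and 70.3 in cKO (2.97-fold), the most abundant of these fallen lipid genes.

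Of the metal-binding and redox genes 6 of 8 were lower, but the class held the largest log2 rise. In this class 25% were higher, against 54.2% of all 190 genes. Mt1, a metallothionein that binds zinc and copper, was at 1.03, 1.14 and 0.603 RPKM in the controls and 72.1, 92.3 and 97.02 in cKO (94.3-fold; log2 fold change 5.95, SE 0.16). The lowest cKO library was far above the highest control, and cKO replicate 1 was the lowest of its group. Atp7b, a copper-transporting ATPase counted with the transporters, was also near absent in controls, at 0.099, 0.075 and 0.115 RPKM in the controls and 2.94, 3.02 and 3.58 in cKO (33.02-fold). Gsta4, a glutathione transferase that removes lipid peroxidation products, went from 3.38, 3.25 and 3.56 RPKM in the controls to 18.2, 16.7 and 20.5 in cKO (5.44-fold). The other glutathione genes fell: Gstm1 was at 94.9, 91.4 and 101 RPKM in the controls and 42.1, 38.4 and 37.1 in cKO (2.44-fold), Gstp2 2.22-fold lower, Ggct 2.29-fold lower and Gpx8 2.28-fold lower. Gstm1 and Gstp2 share 34.3% and 78.1% of their words with other transcripts. Gpx8 in inbred wild type (9.77 ± 1.296 RPKM) was at the cKO level (8.93 ± 1.07 RPKM).

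Channels and transporters were higher in 4 of 9 genes (44.4%, against 54.2% of all 190 genes). Besides Atp7b, the amino acid transporter gene Slc38a5 went from 1.34, 1.2 and 1.54 RPKM in the controls to 9.95, 9.99 and 9.79 in cKO (7.29-fold) and the bestrophin gene Best3 was at 0.095, 0.068 and 0.125 RPKM in the controls and 2.42, 2.16 and 2.24 in cKO (23.7-fold). The sodium-calcium exchanger gene Slc8a1 was at 1.93, 0.982 and 1.42 RPKM in the controls and 6.303, 6.74 and 6.31 in cKO (4.47-fold), and its control libraries spread widely. Lower were the sodium channel gene Scn11a, at 7.75, 6.801 and 7.098 RPKM in the controls and 1.54, 1.38 and 1.01 in cKO (5.51-fold), and the cation channel gene Trpc6, at 24.6, 20.3 and 22.2 RPKM in the controls and 6.44, 8.04 and 6.38 in cKO (3.22-fold). Ccdc109b, a subunit of the mitochondrial calcium uniporter, went from 2.55, 1.86 and 2.65 RPKM in the controls to 0.277, 0.264 and 0.496 in cKO (6.81-fold). Of 12 traffic genes, 7 rose (58.3%), near the share of all genes. They were led by the endocytic adaptor gene Epn3, at 2.03, 1.97 and 1.96 RPKM in the controls and 17.4, 15.03 and 19.5 in cKO (8.72-fold), and by Grtp1 (6.32-fold). The t-SNARE gene Stx11 was at 17.7, 17.7 and 19.7 RPKM in the controls and 4.63, 6.26 and 5.01 in cKO (3.46-fold lower).

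Ribosomal protein genes were lower by RPKM, by small folds. Of 12, limma called 11 lower and left Rpl19 uncalled, beside 45.3% of all 190 genes called lower. Folds were 1.13 to 4.55 and the median log2 fold change was -0.92. Under quantile normalization, however, Rpl36a lost its call (-0.04, limma adjusted p = 0.514) and Rpl19 (0.44) and Rpl37a (0.11) turned higher. Rpl35a fell most, at 60.6, 67.05 and 59.8 RPKM in the controls and 10.7, 15.5 and 14.9 in cKO (4.55-fold), and Rps28 went from 269, 355 and 323 RPKM in the controls to 105, 106 and 108 in cKO (2.96-fold). These genes share 8.63% to 79.9% of their 31-base words with other transcripts and their values are uncertain. In the authors' normalized values the same 12 genes differed by 2.71-fold to 24.5-fold. Rpl34 had the widest gap, at 198, 226 and 222 RPKM in the controls and 109, 93.2 and 93.3 in cKO, 2.18-fold lower by RPKM and 24.5-fold lower in the normalized values. In the mitochondrial class 5 of 6 were lower (16.7% higher, against 54.2% of all 190 genes). Of these 5, Ndufb4 turned under quantile normalization (0.019, limma adjusted p = 0.696). Ndufa1 was at 955, 1258 and 1078 RPKM in the controls and 478, 444 and 476 in cKO (2.35-fold). The mitochondrially encoded mt-Atp6 went from 893, 962 and 778 RPKM in the controls to 113, 205 and 152 in cKO (5.596-fold), with 99.5% of its words shared, and mt-Nd6 was at 1016, 1166 and 907 RPKM in the controls and 363, 592 and 432 in cKO (2.23-fold). Gpd2, a glycerol phosphate dehydrogenase gene, rose 3.68-fold. Malat1 was at 881, 745 and 672 RPKM in the controls and 327, 339 and 289.6 in cKO (2.404-fold lower).

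The 2 deposited measures gave different sizes for a minority of members. Over 188 genes with both measures above 0, the log2 ratio in normalized values was 0.28 lower than in RPKM (median -0.28, quartiles -0.30 and -0.24), a shift common to the list. From that median, 20 genes lay more than 0.5 away, and 16 of these share 5% or more of their words, as do 39 of all 190. Of the 20, 15 were lower in cKO. Ndufb4, a complex I subunit gene, was 1.28-fold lower by RPKM and 6.89-fold lower in normalized values, Rpl19 1.13-fold and 4.49-fold, and Rpl39 1.89-fold and 6.87-fold. Lgsn, with no shared words, was 56.9-fold higher by RPKM and 14.4-fold higher in normalized values. By RPKM 17 members changed by less than 2-fold, 15 of them lower in cKO and 15 of them sharing words. In the normalized values each of the 188 genes above 0 in both groups differed by at least 2.505-fold.

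**Figure D4:**
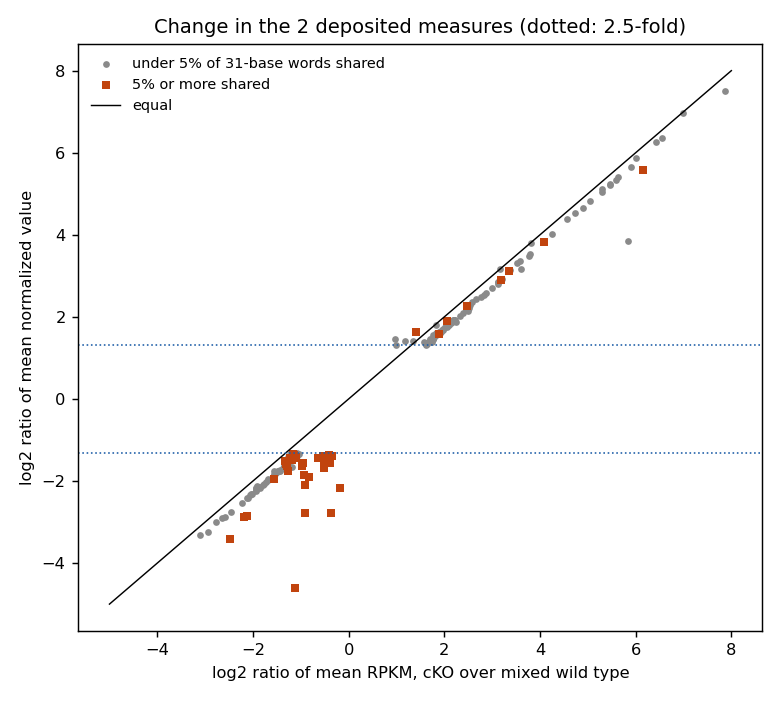
Log2 ratio of cKO over mixed wild type in the authors' normalized values (y axis) against the same ratio in RPKM (x axis) for 188 genes. Squares share 5% or more of their 31-base words with other transcripts, the line marks equality and the dotted lines 2.5-fold; the points that leave the line below 0 are mostly squares.

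Red cell and immune genes were few. The alpha globin gene Hba-a2 went from 392, 529 and 506 RPKM in the controls to 141, 83.4 and 102 in cKO (4.37-fold lower, and 7.22-fold lower in the normalized values), the embryonic globin gene Hba-x was at 5.68, 9.22 and 5.201 RPKM in the controls and 2.65, 1.24 and 1.03 in cKO (4.095-fold lower) and the erythroid membrane gene Ermap was at 13.3, 12.7 and 13.4 RPKM in the controls and 3.38, 3.09 and 2.48 in cKO (4.39-fold lower). Hba-x in cKO had the largest coefficient of variation among genes above 1 RPKM, 53.8%, with replicate 1 highest. The erythroid spectrin gene Spna1 went the other way, at 1.61, 1.39 and 1.31 RPKM in the controls and 4.83, 4.82 and 4.91 in cKO (3.38-fold). Its inbred wild type level of 3.06 ± 0.512 RPKM was nearer to cKO than to mixed wild type on the log2 scale. Hba-a2 shares 91.03% of its words with other transcripts, so its value is uncertain. Red cell markers, 4 members of 20, most of their sum from Hba-a2, summed to 412 to 552 RPKM in mixed wild type and 92.5 to 152 RPKM in cKO, and their part in the results was not tested. Igkc, an immunoglobulin gene, was at 1.84, 3.01 and 2.32 RPKM in the controls and 7.46, 8.62 and 7.39 in cKO (3.27-fold), and Ptprcap, which encodes a CD45-associated protein, at 0.223, 0.325 and 0.171 RPKM in the controls and 2.48, 2.33 and 2.57 in cKO (10.3-fold). Ptprcap rests on 28 reads in mixed wild type and 181 in cKO and shares 38.2% of its words with other transcripts, so its value is uncertain. Neither the 21 macrophage and leukocyte markers, the 14 pigment cell markers nor the 19 periocular mesenchyme markers had a member. Markers that are not members were not analysed here.

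Replicates were close for most members. The median coefficient of variation was 7.94% in mixed wild type over 148 genes at 1 RPKM or more and 7.77% in cKO over 184 genes. It passed 30% in 6 such genes in mixed wild type and 3 in cKO. Across genes, however, the libraries kept an order. Replicate 3 of the cKO was the highest of its group in 64 of the 103 genes higher in cKO and the lowest in 43 of the 87 genes lower in cKO. Replicate 1 was the lowest in 61 of the 103 and the highest in 43 of the 87. In the genes higher in cKO, the median deviation from the group mean was 0.07 for replicate 3 and -0.06 for replicate 1 on the log2 scale, so that replicate 3 stood farther from the controls than replicate 1 in most genes. Mixed wild type replicate 1 was the highest of its group in 54 of the 103 genes and replicate 2 the lowest in 57.

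In mixed wild type the order of libraries followed exon length. Over the 128 genes with a deposited exon length, the log2 ratio of replicate 1 over replicate 2 had a Pearson correlation of 0.49 and a Spearman correlation of 0.56 with log2 length, as a description across genes of the same libraries. The ratio had a median of -0.19 in the 32 shortest genes (399 to 1218 bases) and 0.17 in the 32 longest (4300.0 to 11114 bases). In cKO the same pair had correlations of 0.03 (Pearson) and -0.04 (Spearman) with log2 length, and medians of 0.028 in the shortest and -0.0049 in the longest genes. Among these 128 genes length also differed by direction: the median was 3207 bases for the 43 genes higher in cKO and 1922 bases for the 85 lower. The other 60 genes higher in cKO have no deposited length and are not covered. Of the 32 shortest genes 7 were higher and 25 lower, and of the 32 longest 17 and 15. Its part in the direction was not tested.

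**Figure D5:**
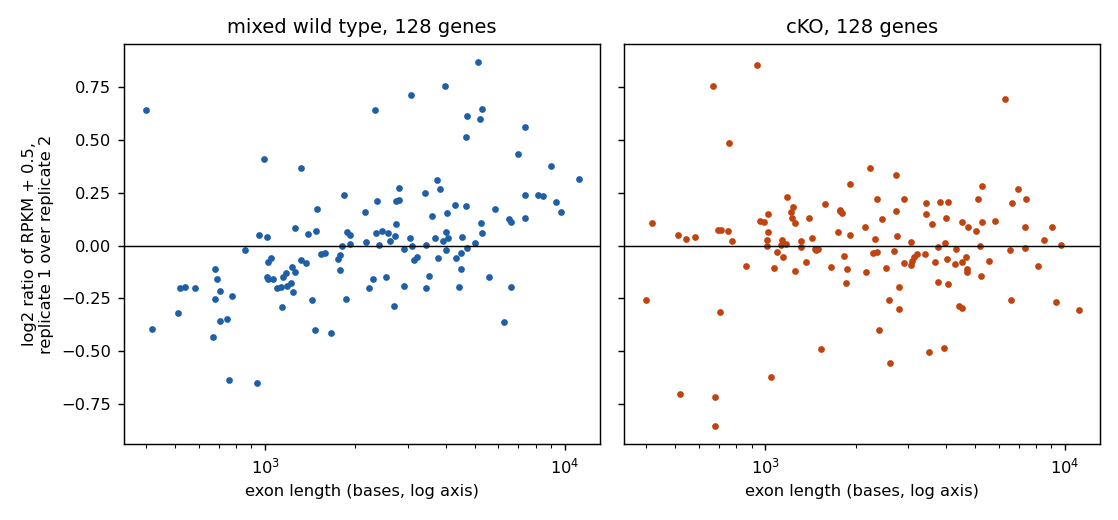
Log2 ratio of RPKM + 0.5 of replicate 1 over replicate 2 (y axis) against exon length (x axis, logarithmic) for 128 genes, in mixed wild type (left) and cKO (right). The ratio rises with length in mixed wild type (Pearson 0.49) and shows no slope in cKO (0.03).

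Some members are neighbours in the genome. Among the 186 genes placed in the RefSeq order, 20 pairs had at most 4 protein-coding genes between them, and 13 of these moved in the same direction. Of 7 directly adjacent pairs 5 did: Krt8 with Krt18 and Dkk1 with Prkg1 rose, while Tubb2a with Tubb2b, Ermap with Ccdc23, and Ndufa1 with Rnf113a1 fell. With 103 of the 190 genes higher and 87 lower, many pairs of members share a direction wherever they lie. The share among all pairs was not computed, so these counts do not show that neighbours moved together. Ndufa1 (2.35-fold) and Rnf113a1 (2.42-fold) start head to head and share 17 bases. Rpl37a (1.44-fold lower) and Igfbp2 (44.02-fold higher) are adjacent and moved apart, as did Rpl19 and Stac2. In RefSeq, 27 of the 186 overlap another protein-coding gene, 11 of them higher and 16 lower in cKO, beside 103 higher and 87 lower in the list. The share of all protein-coding genes that overlap another was not computed, so whether overlap is unusual among members is not known. The counting is not stated to use strand, so reads of overlapping genes cannot be told apart.

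Inbred wild type gave another wild type level, though whether the authors used it in making the list is not stated. In 109 of the 128 genes it lists, its mean lay nearer to mixed wild type than to cKO on the log2 scale, and in 19 nearer to cKO. Among those 19 were Ceacam10, Gpx8, Lctl, Plxna1, Fgfbp3, Hmgn3 and Spna1, whose inbred levels are given above, and the ribosomal protein genes Rpl17, Rpl19, Rpl36a and Rpl39. So were Cbl, at 2.7 ± 1.25 RPKM in inbred wild type, and Ngfr, at 6.1 ± 0.421 RPKM. Ccdc23 was another, at 68.8, 76.9 and 83.4 RPKM in the controls and 26.003, 28.1 and 27.8 in cKO, with 38.7 ± 4.52 RPKM in inbred wild type. Rab6b, a vesicle traffic gene, went from 2.74, 1.61 and 1.999 RPKM in the controls to 8.24, 7.71 and 7.85 in cKO, with 4.75 ± 0.6398 RPKM in inbred wild type. In these genes the difference of cKO from mixed wild type was larger than that of cKO from inbred wild type. The inbred libraries differ from the mixed wild type in strain, depth and floxed alleles as well.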

How the data were processed

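RNA of pooled mouse lenses was sequenced from libraries made with an Illumina TruSeq RNA kit, per the labels' protocols. The submitters' processing notes name CASAVA 1.8.2. No aligner, annotation or build is given in the sources used here. Each library's file gives a gene's RPKM and a normalized expression value, per the file headers. The normalized value is a score that the authors computed before deposit by a method that no header states. Exon lengths are in the inbred files only, and gave depth and reads from the steps between RPKM values (100% of the low values used came out whole within the rounding of the deposited RPKM), as well as lengths up to 3000 bases for 24 other genes (the method was right for 76 of 76 genes with a known length).

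The test was limma 3.58.1 in R 4.3.3, with its mean-variance trend, on log2(RPKM + 0.5). Genes entered it at an average of 1 RPKM or more across the 6 libraries, and p-values were adjusted over all 190 genes by the Benjamini-Hochberg method at 0.05. The fit was tested on simulated data. Genes were put by symbol into 16 function classes. The members, classes, lists and the rule for named genes were chosen with earlier results of these data known. The rule took the 30 largest rises and falls, up to 4 per class and direction, members of lists, the 10 most abundant genes, the 5 most variable, uncalled genes and the 5 smallest folds (137 genes). Genes named outside it were chosen with their values known.

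Words of 31 bases were compared with GENCODE M21 transcripts. Promoters, gene order and overlaps came from RefSeq tables of GRCm38.p6, whose build may differ from the authors'. Promoters matched 147 of 190 genes. Alternatives were other pseudocounts, filters, scalings, minimum folds, the normalized values, a joint fit with inbred wild type, a replicate block, and each library left out. Rescaled RPKM, the removal of genes sharing words, and the use of inbred-listed genes alone were added after the data were seen. Other steps used Python 3.11.15, numpy 2.4.6, pandas 2.3.3, scipy 1.17.1 and matplotlib 3.10.9.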

Additional observations from a re-analysis of the deposited data

How the results depend on the processing

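All 190 genes kept their direction under each alternative in which they were fitted, except under quantile normalization, which reversed 8. Their log2 fold changes there were -0.23 for Cbx6, 0.35 for Hnrnpa1, -0.20 for Jhdm1d, 0.019 for Ndufb4, 0.44 for Rpl19, 0.11 for Rpl37a, -0.0019 for Snx29 and -0.0043 for Sox3. It also ended the calls of 14 others, namely Apln, Cbl, Cxx1b, Cyr61, Dsc2, Ehd4, Itgb8, Rassf4, Rnase4, Rnaset2a, Rpl36a, Ube2v1, Vill and Zfp111 (limma adjusted p of 0.0674 to 0.941), and median centring those of Cbx6, Jhdm1d, Plxna1 and Polr2b (0.349 to 0.572). Quantile normalization called 171 genes, and the median over all genes, 1.37 as reported, was 0.19 there and 0.49 under median centring (186 called). Both scalings were made over the 190 selected genes alone, with a median of 4.18 RPKM in mixed wild type and 8.48 RPKM in cKO. They make the libraries alike over that list, so a move of the median toward 0 is built in. Calls lost or turned there do not decide whether a gene changed. The counts moved with the genes fitted. In the joint fit of all 9 libraries, and over the 128 inbred-listed genes, 43 were higher (33.9% of those called, against 54.5% as reported), 84 lower, and 107 changed by 2-fold. The inbred list leaves out 62 members, 60 of them higher in cKO, so that lower share follows from the genes left out. A minimum fold of 2 left 49 lower and 99 higher, and one of 2.5 left 106 called, 26 of them lower and 80 higher. Without the genes sharing words 56 were lower and 95 higher. Fewer genes also reversed class medians, from the inbred-listed genes alone to -1.25 (cytoskeleton), -1.08 (keratins and junctions), -1.58 (matrix, 1 gene) and -0.96 (metabolic enzymes), and without the genes sharing words to 0.17 (mitochondrion) and 1.91 (ribosome and RNA). The reversals over the inbred-listed genes follow in the same way from the rises left out. The transcription median was -0.0043 under quantile normalization and the ubiquitin median -0.13 under median centring. Leaving out 1 library called 185 to 190 genes, and 163 to 174 changed by 2-fold. Without mixed wild type replicate 1 Rpl19 was called (adjusted p = 0.0287 by limma). With the replicate block 189 genes were called, 103 higher and 86 lower, and no call changed. Same-numbered libraries did not deviate together (correlations -0.10, -0.11 and -0.15), so the numbers were not taken as pairs. Depth limits genes such as Prr15 and Hist1h2af, with 1 to 3 reads in a group.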
